A study of Mus musculus with 10 samples.

Results

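The genes described here encode the ADAM, ADAMTS and matrix metalloproteinase (MMP) families, the ADAMTS-like proteins and the TIMP and RECK inhibitors. They were chosen by gene symbol alone, which gave 85 of the 53801 genes in the count table. There were 33 *Adam*, 19 *Adamts*, 5 *Adamtsl*, 23 *Mmp* and 4 *Timp* genes, and *Reck*. RNA was measured in AtT20/D16v-F2 cells, a mouse line from a pituitary corticotroph tumour, which makes the ACTH precursor POMC. One line had been stably transduced with lentivirus for a short hairpin RNA against *Creb3l1* (shRNA1), and the other with lentivirus for a non-targeting control shRNA. Each shRNA is represented by a single stable line with 5 libraries, so p-values measure the spread between libraries of a line, and the knockdown cannot be told apart from other differences between the 2 lines.

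ADAM proteins are anchored in the membrane and shed the outer parts of growth factors, cytokines, adhesion molecules and receptors from the cell surface. ADAMTS proteins are secreted, carry thrombospondin repeats and cut proteoglycans, procollagens and other matrix proteins, while the ADAMTS-like proteins have such repeats and no protease domain. MMPs are secreted or membrane-bound enzymes that degrade matrix and surface proteins, and TIMPs and RECK block the active sites of many of these enzymes. In endocrine cells, sheddases act on proteins of the secretory pathway and the cell surface such as the amyloid precursor protein.

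The libraries held between 17420698 and 22205107 counts. A count of 0 in a library allows up to 3 reads at these depths (counting error only). Levels are given as normalised counts, which are counts scaled by library size with TMM factors. *Creb3l1* itself was at 3689 ± 148 in the non-targeting and 1090 ± 59.2 in the knockdown line (SD, n = 5 each). In such bulk RNA, fewer cells of a type and less RNA per cell cannot be told apart. The non-coding RNA *Gm42418* made up 4.13% of non-targeting replicate 3 and between 0.106% and 0.191% of every other library. All 6 corticotroph markers looked for (*Pomc*, *Tbx19*, *Pitx1*, *Neurod1*, *Crhr1* and *Pcsk1*) were detected, with a summed level of 150424 to 161539 normalised counts in non-targeting and 108547 to 115408 in knockdown libraries. Most of this sum was *Pomc*, which fell (log2 fold change -0.51), as did *Tbx19* (-0.27) and *Pcsk1* (-0.46). *Neurod1* (0.62) and *Pitx1* (0.36) rose and *Crhr1* (-0.11) was not called. By quantitative PCR, the study itself found *Pomc* RNA unchanged in its knockdown lines. Of 7 markers of other pituitary cells, *Prl*, *Tshb*, *Fshb* and *Pou1f1* had no read. *Ptprc*, *Adgre1* and *Aif1* of 5 leukocyte markers and *Kdr* and *Cdh5* of 4 endothelial markers had none either. The leukocyte list summed to 34.2 to 51.9 normalised counts in non-targeting and 24.6 to 38.2 in knockdown libraries. The endothelial list summed to 16.95 to 25.7 and to 7.49 to 11.03, with no overlap. In that list *Pecam1*, with 100 reads in all, was called lower (log2 fold change -1.08, adjusted p = 0.0063, edgeR). *Pecam1* passed edgeR's filter on low counts only through the non-targeting line. *Tek* averaged 7.976 and 2.704 and was not tested. Among 5 fibroblast markers *Lum* had no read and *Dcn* had 1, but *Col1a1* and *Col1a2* were present, so that this list summed to 814 to 1153 in non-targeting and 943 to 1681 in knockdown libraries.

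Of the 85 genes, 25 had no read in any library, 14 had between 1 and 9 reads in all, and 13 had 10 or more but did not pass edgeR's filter on low counts. This left 33 genes that were tested. Of 21 *Adam* genes known mainly from the reproductive tract, 14 had no read, and *Adam1a*, at 19.98 ± 8.13 (SD, n = 5) normalised counts in the non-targeting line, was the single one tested. On the same strand, its annotated exons share 4779 bases with *Gm42878*, which had no read, and 1805 with *Mapkapk5*. On the other strand they share 848 with *Tmem116*, so the reads of *Adam1a* are uncertain. Of 16 secreted MMP genes, 8 had no read, and *Mmp2* and *Mmp28* were tested. *Timp4* had no read and *Timp1* had 25 in the 10 libraries together. *Adamts14* (62 reads), *Adamts13* (49), *Adamts5* (14), *Adamtsl4* (97), *Adamtsl3* (13), *Adam4* (81), *Adam11* (42), *Adam32* (19), *Adam21* (11), *Mmp19* (24), *Mmp11* (14) and *Mmp9* (14) were detected below the level needed for a test.

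**Figure D1:**
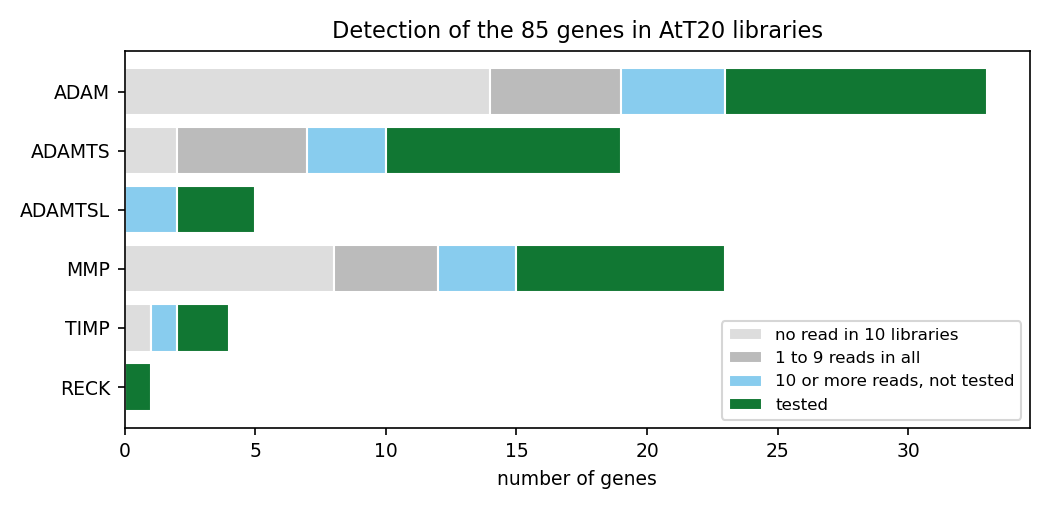
Number of genes in each family (horizontal axis) by how they were detected in the 10 AtT20 libraries, as stacked bars for ADAM, ADAMTS, ADAMTS-like (ADAMTSL), MMP, TIMP and RECK. Of the 33 ADAM genes 10 were tested and 14 had no read, and of the 23 MMP genes 8 were tested and 8 had no read.

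A block of secreted MMP genes on chromosome 9, with collagenases, stromelysins and relatives, was almost without reads. In GRCm38 these 10 genes lie between 7272514 and 7699585, and together they gave 2 reads in the 10 libraries, with no read on 8 of them. One read fell on *Mmp3* and the other on *Mmp13*. RefSeq promoters (250 bases before to 50 after a start site, GRCm38.p6) were searched for the AP-1 word TGANTCA on both strands, where N is any base. It stood in a promoter of 8 of the 10 genes, where *Mmp7* and *Mmp12* each had another promoter without it. Counted per promoter and not per gene, 7.81% of all 32851 promoters held it. The sequences are shown because these neighbouring genes, with at most 1 read each, share the word. Each stretch is 5′ to 3′ on the gene's strand, capitals mark the AP-1 word, and the coordinates are those of the word.
Mmp10 (chr9:7502279-7502285, plus strand): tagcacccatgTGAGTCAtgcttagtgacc
Mmp12 (chr9:7347330-7347336, plus strand): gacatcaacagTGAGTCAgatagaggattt
Mmp13 (chr9:7272479-7272485, plus strand): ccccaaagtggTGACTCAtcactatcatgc
Mmp1a (chr9:7464068-7464074, plus strand): gttgtcaaccaTGAGTCAcatagcctctgg
Mmp1b (chr9:7388113-7388119, minus strand): gttacaaagccTGAGTCAtatagcctctgg
Mmp20 (chr9:7628136-7628142, plus strand): catttgagacaTGAATCAtcacttacaggg
Mmp3 (chr9:7445776-7445782, plus strand): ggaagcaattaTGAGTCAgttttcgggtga
Mmp7 (chr9:7692027-7692033, plus strand): aagtgtgcaaaTGAGTCAcctatttccaca
The word started between 35 bases (*Mmp13*) and 95 bases (*Mmp20*) before the start site. A match describes letters only and says nothing of whether a factor was bound. RefSeq promoters were found for 54 of the 85 genes (59 promoters). Of the 23 tested genes with a promoter, *Adam19* alone had the AP-1 word, while 12 of 31 genes that were not tested had it. These 12 include the 8 neighbouring chromosome 9 genes shown above, so the 2 counts are not separate observations.

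Levels of different genes were compared per transcript length, as TPM, a transcript abundance scaled by the length of the longest annotated transcript and by library size. *Adam9* and *Adam10* were the most abundant of these genes in the non-targeting line, at 70.8 and 67.4 TPM, and together made up 72.2% ± 1.42 (SD, n = 5) of the summed level of the 9 somatic ADAM metalloproteinases. *Mmp24* followed at 35.9 TPM and was 53.2% ± 2.03 (SD, n = 5) of the summed MMP level. *Timp2* was at 27.2 TPM, *Adam17* at 25.9, *Adam15* at 25.02 and *Timp3* at 14.5. All other tested genes were below 10 TPM in the non-targeting line. The ADAMTS genes together reached 10.5 ± 0.922 TPM (SD, n = 5), of which *Adamts4* made up 43.5%. These families were thus carried by a few genes each, and most other tested ADAMTS genes were near 1 TPM or lower.

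**Figure D2:**
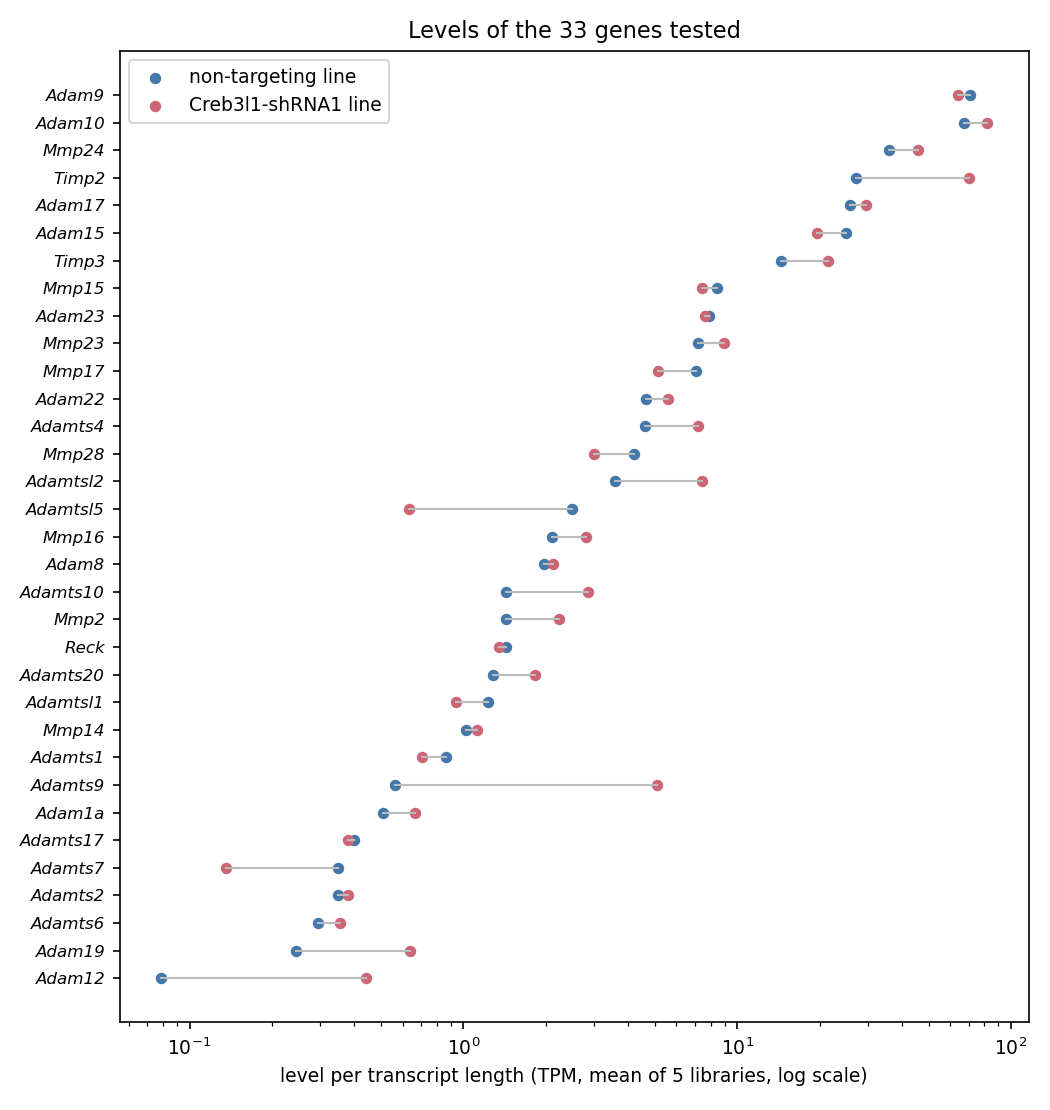
Mean level of each of the 33 tested genes in TPM (horizontal axis, log scale; n = 5 libraries per line), ordered by the level in the non-targeting line. Blue points are the non-targeting line and red points the Creb3l1-shRNA1 line. *Adam9* and *Adam10* lie at the top in the non-targeting line, *Timp2* (70.1 TPM) lies between *Adam10* (81.9) and *Adam9* (63.99) in the knockdown line, and *Adamts9*, *Timp2* and *Adamtsl5* show long gaps between the lines.

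Between the lines, 19 of the 33 tested genes had an adjusted p under 0.01 (edgeR's quasi-likelihood test, Benjamini-Hochberg over all 14336 genes tested). Across all genes tested the share called was 40.7%. Of the 19 genes, 11 were higher and 8 lower in the *Creb3l1*-shRNA1 line, where 20.6% of all genes were called higher and 20.1% lower. Changes of at least 1.5-fold were found for 8 of the genes, 6 higher and 2 lower, and for 7.73% of all genes in either direction. For 16 genes the libraries of one line were all above those of the other, against 36.0% of all genes. The median log2 fold change was 0.18 over the 33 tested genes and -0.0025 over all genes. The 19 genes lie on 13 chromosomes. *Adam12* passed the filter through the knockdown line (1 non-targeting library reached the minimum) and *Adamts7* through the non-targeting line (no knockdown library reached it), so the counts over tested genes lean on such cases.

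**Figure D3:**
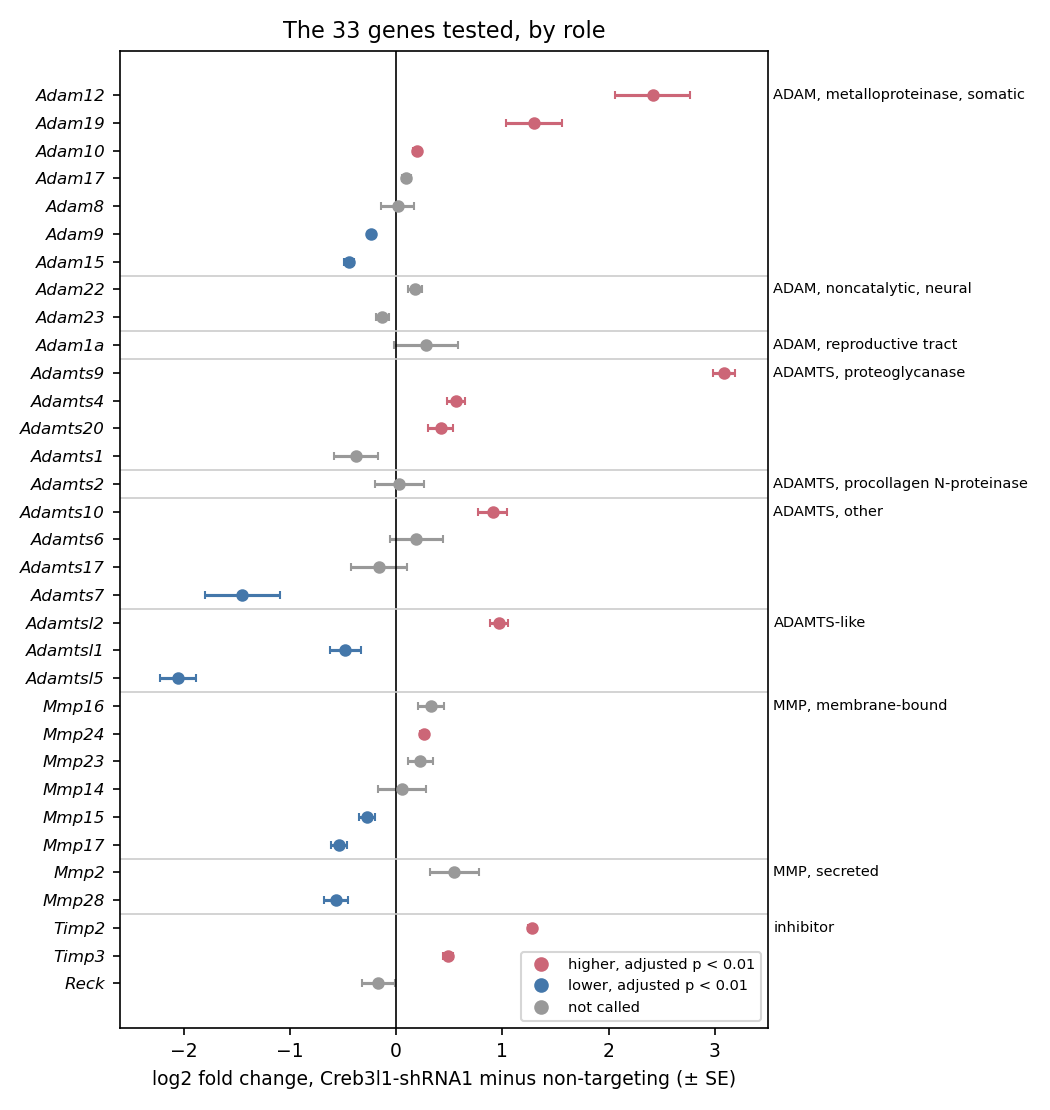
Log2 fold change of each tested gene (horizontal axis, Creb3l1-shRNA1 minus non-targeting, bars are ± 1 SE), grouped by role. Red is higher and blue lower at an adjusted p under 0.01 in edgeR, and grey is not called. *Adamts9* is at 3.09 and *Adamtsl5* at -2.05, while most genes lie between -0.6 and 0.6.

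The secreted ADAMTS proteases held the gene with the steepest rise. *Adamts9* (ENSMUSG00000030022, chromosome 6 from 92772699 to 92943492, minus strand of GRCm38) encodes a protease that cuts versican and aggrecan. Its normalised counts were 36.2, 31.8, 35.5, 33.8 and 43.4 in non-targeting replicates 1 to 5. In the knockdown libraries they were 317, 310.4, 312, 279.5 and 327. All 5 knockdown libraries were far above all control libraries, and neither group was spread widely. The rise was 3.09 ± 0.10 on the log2 scale (± SE here and in later log2 fold changes; adjusted p = 2.7e-26, edgeR), or 8.51-fold, the 7th highest among the 14336 genes. Its share of the summed ADAMTS level in TPM went from 5.37% ± 0.955 to 26.6% ± 1.17 (SD, n = 5 each). The 2 antisense genes that overlap its exons had 1 read between them.

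*Adamts20*, the closest relative of *Adamts9* in the family, rose less, from 71.2 ± 5.15 normalised counts to 95.0 ± 9.56 (SD, n = 5 each). Its log2 fold change was 0.42 (adjusted p = 0.0028, edgeR), and the call was lost without non-targeting replicate 5 (0.38, adjusted p = 0.011) or knockdown replicate 3 (0.38, adjusted p = 0.011). *Adamts4*, an aggrecanase and the most abundant of the family in both lines, was at 178, 177, 159, 145 and 150 in the non-targeting libraries and at 243, 269, 222, 225 and 234 in the knockdown libraries. The lines did not overlap, with a log2 fold change of 0.56 ± 0.084 (adjusted p = 3.6e-07, edgeR). *Adamts1*, which cuts the same proteoglycans, was at 33.8 ± 6.35 and 26.2 ± 6.29 (SD, n = 5 each) and was not called (adjusted p = 0.13, edgeR). Thus 3 of the 4 tested proteoglycanase genes were called higher, where 20.6% of all genes tested were, and the call of *Adamts20* among them was unstable.

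*Adamts10*, whose product binds fibrillin-1 in microfibrils, was at 47.3, 48.7, 50.1, 51.6 and 39.6 normalised counts in the non-targeting libraries. It was at 102.9, 94.2, 80.8, 87.2 and 79.97 in the knockdown libraries, a log2 fold change of 0.91 ± 0.13 (adjusted p = 2.9e-07, edgeR). Every knockdown library was above every control library. *Adamts7*, a protease that cuts cartilage oligomeric matrix protein, went the other way at very low counts. It gave 16.1, 13.8, 12.2, 14.1 and 18.9 in non-targeting and 1.84, 4.28, 7.45, 8.53 and 5.45 in knockdown libraries. The groups did not overlap, and the log2 fold change had a large error (-1.45 ± 0.35, adjusted p = 6.2e-04, edgeR). *Adamts7* passed the filter on low counts only through the non-targeting line, where it was higher, so neither result is independent of that filter. *Adamts6* (log2 fold change 0.19), *Adamts17* (-0.16) and the procollagen N-proteinase gene *Adamts2* (0.031) were not called, at means near 20 normalised counts where differences of their size were not detectable.

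All 3 tested ADAMTS-like genes were called, in both directions, where 40.7% of all genes tested were called. *Adamtsl5* (ENSMUSG00000043822, chromosome 10 from 80339110 to 80348412, minus strand) encodes a secreted protein that binds heparin and fibrillin microfibrils. It was at 74.4, 95.4, 86.8, 83.6 and 72.6 normalised counts in the non-targeting libraries and at 17.5, 19.3, 19.1, 17.1 and 25.4 in the knockdown libraries. Even the highest knockdown library, replicate 5, was far below the lowest control library. The log2 fold change was -2.05 ± 0.17 (adjusted p = 1.2e-13, edgeR), the 47th lowest among all genes. *Adamtsl2*, whose product binds fibrillin-1 and the latent TGF-beta binding protein LTBP1, was at 196, 163, 130, 189 and 174 against 325, 330, 316, 340.2 and 364. It rose by a log2 fold change of 0.97 ± 0.083 (adjusted p = 5.9e-13, edgeR) with no overlap. *Adamtsl1* fell from 77.4 ± 10.8 to 55.7 ± 10.8 (SD, n = 5 each), the groups overlapped, and its call (log2 fold change -0.48, adjusted p = 0.0052, edgeR) was lost without any one of non-targeting replicates 1, 4 and 5 and knockdown replicates 3 and 4 (-0.38, adjusted p = 0.029, without the last).

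Both TIMP genes that were tested rose, where 20.6% of all genes tested were called higher. *Timp2* (ENSMUSG00000017466, chromosome 11 from 118301069 to 118355740, minus strand) encodes an inhibitor that blocks MMPs and, together with MMP14, also takes part in the activation of pro-MMP2. Its normalised counts were 869, 810, 818, 785 and 768 in the non-targeting libraries. In knockdown libraries they were 1929, 2001, 2027, 1902 and 1961. Each knockdown library held more than any control library, with a log2 fold change of 1.28 ± 0.036 (adjusted p = 1.4e-28, edgeR), or 2.43-fold. *Timp3*, whose product binds to the matrix and also blocks ADAM17 and aggrecanases, was at 519, 562, 593, 528 and 553 against 816, 762, 765, 711 and 792. The lines were separate here too, with a log2 fold change of 0.48 ± 0.047 (adjusted p = 1.5e-11, edgeR). *Syn3* overlaps exons of *Timp3* on the other strand, but it had 193 reads against 6621. Whether the counting used strand is not given in the sources used here. In TPM the summed TIMP level went from 42.2 ± 2.20 to 91.9 ± 2.77 (SD, n = 5 each), while that of all MMP genes was 67.7 ± 4.17 and 76.7 ± 2.47 and that of the somatic ADAM metalloproteinases 191 ± 11.6 and 198 ± 6.19. These sums are levels and were not tested. *Reck*, an inhibitor anchored in the membrane, was at 52.2 ± 5.44 and 46.3 ± 6.97 normalised counts (SD, n = 5 each) and was not called (adjusted p = 0.39, edgeR).

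**Figure D4:**
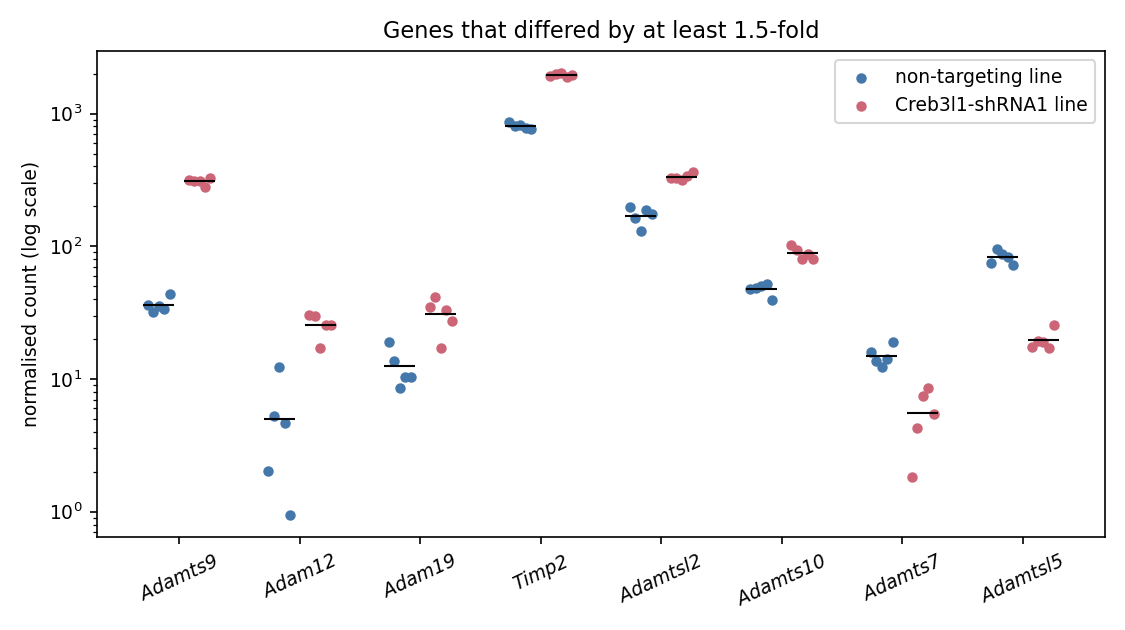
Normalised count in each library (vertical axis, log scale) of the 8 genes with an adjusted p under 0.01 and a difference of at least 1.5-fold, ordered by log2 fold change. Points are single libraries (blue non-targeting, red Creb3l1-shRNA1, n = 5 each) and lines are means. The groups are separate for all genes but *Adam19*, and *Adam12*, *Adam19* and *Adamts7* lie at counts near or below 40.

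*Adam10*, the main alpha-secretase of the amyloid precursor protein and the enzyme that releases the Notch ectodomain, rose from 2486 ± 88.6 normalised counts to 2844 ± 147 (SD, n = 5 each). Its log2 fold change was 0.19 ± 0.033 (adjusted p = 4.4e-06, edgeR). *Adam9*, a related sheddase, fell from 2298 ± 74.8 to 1956 ± 55.0 (SD, n = 5 each), a log2 fold change of -0.23 (adjusted p = 5.5e-08, edgeR). *Adam15*, which has a disintegrin domain that binds integrins, fell from 787 ± 47.6 to 578 ± 27.9 (SD, n = 5 each; log2 fold change -0.45, adjusted p = 1.6e-10, edgeR). For these 3 genes the lines did not overlap. *Adam17*, the TNF converting enzyme, was at 931 ± 53.0 and 995 ± 36.0 (SD, n = 5 each) and was not called (log2 fold change 0.095, adjusted p = 0.055, edgeR). *Adam8* was not called at 58.0 ± 6.34 and 58.9 ± 13.8 (SD, n = 5 each).

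The meltrin genes *Adam12* and *Adam19*, known from muscle, bone and heart development, were near the limit of detection in the non-targeting line. *Adam12* passed the filter on low counts only through the knockdown line, so its separation and p-value are not independent of that filter. *Adam12* had 2, 5, 10, 5 and 1 reads there and 33, 28, 16, 27 and 28 reads in the knockdown libraries. In normalised counts the lowest knockdown library, at 17.02, was above the highest control library, at 12.2. The log2 fold change of 2.41 ± 0.35 (adjusted p = 2.1e-07, edgeR) therefore rests on few reads, and it ran from 2.13 to 2.96 when each library was left out in turn. *Adam19* was at 19.1, 13.8, 8.56, 10.3 and 10.4 against 34.9, 41.7, 17.02, 33.2 and 27.3 normalised counts. Knockdown replicate 3 lay below non-targeting replicate 1, so the groups overlapped, at a log2 fold change of 1.30 ± 0.26 (adjusted p = 5.8e-05, edgeR).

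The noncatalytic neural members *Adam22* and *Adam23*, which bind the secreted protein LGI1 at synapses, were not called. *Adam22* was at 346 ± 22.1 and 391 ± 23.3 normalised counts (log2 fold change 0.18, adjusted p = 0.018, edgeR) and *Adam23* at 407 ± 19.1 and 372 ± 26.5 (-0.13, adjusted p = 0.082, edgeR; SD, n = 5 each). *Adam23* was called, at -0.21, once GC content and transcript length were corrected for, and *Adam22* without non-targeting replicate 5 (0.22, adjusted p = 0.0058, edgeR). Other fits gave smaller values. Across the alternative fits the log2 fold change ran from 0.057 to 0.22 for *Adam22* and from -0.21 to -0.058 for *Adam23*.

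Of the 6 tested MMPs held at the membrane, 1 rose and 2 fell, where 40.7% of all genes tested were called. *Mmp24*, which encodes MT5-MMP, a neural protease that cuts N-cadherin, rose from 1245 ± 46.7 normalised counts to 1492 ± 57.9 (SD, n = 5 each), with a log2 fold change of 0.26 ± 0.036 (adjusted p = 6.4e-08, edgeR) and no overlap. *Mmp17*, which encodes the GPI-anchored MT4-MMP, fell from 364 ± 29.2 to 250 ± 24.3 (SD, n = 5 each), a log2 fold change of -0.54 (adjusted p = 6.3e-08, edgeR), also with no overlap. *Mmp15* (MT2-MMP) fell from 348 ± 37.1 to 288 ± 21.4 (SD, n = 5 each) with overlapping groups, and its call (-0.27, adjusted p = 0.0019, edgeR) was lost without non-targeting replicate 2 (adjusted p = 0.012). *Mmp16* (MT3-MMP; log2 fold change 0.33, adjusted p = 0.025, edgeR), *Mmp23* (0.23, adjusted p = 0.11, edgeR) and *Mmp14* (MT1-MMP; 0.055, adjusted p = 0.86, edgeR) were not called. *Mmp16* was called without non-targeting replicate 2 (0.42, adjusted p = 0.0061, edgeR). *Mmp14* was low, at 26.7 ± 5.56 and 27.5 ± 8.80 normalised counts (SD, n = 5 each).

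The secreted *Mmp28*, or epilysin, fell from 116 ± 16.2 to 78.3 ± 5.20 (SD, n = 5 each), a log2 fold change of -0.57 ± 0.11 (adjusted p = 6.0e-05, edgeR), with no overlap. *Mmp2*, or gelatinase A, was taken up after its values were seen, because its knockdown libraries differed so much among themselves. It was at 30.2, 41.3, 37.9, 35.7 and 32.1 normalised counts in the non-targeting libraries and at 26.6, 50.3, 73.4, 73.0 and 37.3 in the knockdown libraries. Knockdown replicates 3 and 4 were high and replicate 1 was the lowest of all, and the gene was not called (log2 fold change 0.55, adjusted p = 0.053, edgeR). *Fn1*, *Col1a1*, *Col1a2*, *Col3a1* and *Bgn* were highest within the line in the same 2 knockdown libraries. Some other matrix genes were not, such as *Eln*, at 3368 and 3186 there and at 3154 to 3394 in the other knockdown libraries. *Fn1* was at 134 and 82.4 in replicates 3 and 4 and at 34.0 to 60.0 in the other knockdown libraries, and *Col1a2* was at 513 and 344 there and at 147 to 220.5 elsewhere in the line. Both were also high in non-targeting replicate 1, at 84.5 and 313, where *Mmp2* was not. With these 3 libraries left out, a choice made after the values were seen, 16 of the 19 genes were still called in the same direction, the losses being *Adamtsl1*, *Mmp15* and *Adamts20*. The log2 fold change of *Mmp2* was then 0.045 (adjusted p = 0.90, edgeR). The libraries left out held its 2 highest knockdown values (73.4 and 73.0) and its lowest non-targeting value (30.2). This smaller value therefore follows from the choice of libraries, and no conclusion is drawn from it. The part of the matrix genes in the *Mmp2* values was not tested.

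**Figure D5:**
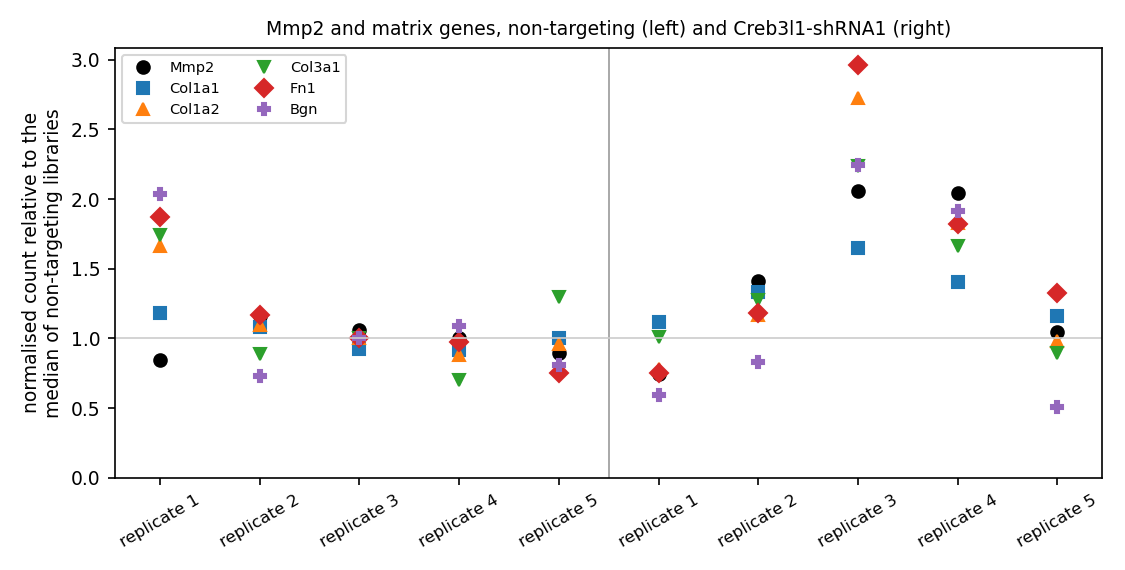
Normalised count of *Mmp2* and 5 matrix genes in each library, divided by the median of the non-targeting libraries (vertical axis, linear), with non-targeting replicates 1 to 5 on the left and Creb3l1-shRNA1 replicates 1 to 5 on the right. In knockdown replicates 3 and 4 *Mmp2* (73.4 and 73.0 normalised counts) and all 5 matrix genes lie above the median, and in non-targeting replicate 1 the matrix genes are high while *Mmp2* is not.

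Promoters were read for the genes with the steepest moves in each direction and for the most abundant inhibitor. They are given 5′ to 3′ on the gene's strand (RefSeq, GRCm38.p6), with the bases from the start site on in capitals.
Adamts9 (chr6:92943485-92943784, minus strand): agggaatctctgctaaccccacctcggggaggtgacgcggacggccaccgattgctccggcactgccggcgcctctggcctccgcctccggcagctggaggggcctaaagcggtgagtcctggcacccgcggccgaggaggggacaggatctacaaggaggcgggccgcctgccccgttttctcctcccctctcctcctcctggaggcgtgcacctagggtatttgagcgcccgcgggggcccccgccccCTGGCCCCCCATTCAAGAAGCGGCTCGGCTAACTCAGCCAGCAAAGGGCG
Timp2 (chr11:118355362-118355661, minus strand): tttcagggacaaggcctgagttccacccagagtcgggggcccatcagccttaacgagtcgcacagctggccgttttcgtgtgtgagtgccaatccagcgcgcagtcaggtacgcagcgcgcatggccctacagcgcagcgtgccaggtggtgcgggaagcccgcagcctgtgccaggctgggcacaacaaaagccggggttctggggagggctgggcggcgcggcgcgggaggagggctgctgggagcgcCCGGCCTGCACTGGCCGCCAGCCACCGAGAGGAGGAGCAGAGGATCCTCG
Adamtsl5 (chr10:80348399-80348698, minus strand): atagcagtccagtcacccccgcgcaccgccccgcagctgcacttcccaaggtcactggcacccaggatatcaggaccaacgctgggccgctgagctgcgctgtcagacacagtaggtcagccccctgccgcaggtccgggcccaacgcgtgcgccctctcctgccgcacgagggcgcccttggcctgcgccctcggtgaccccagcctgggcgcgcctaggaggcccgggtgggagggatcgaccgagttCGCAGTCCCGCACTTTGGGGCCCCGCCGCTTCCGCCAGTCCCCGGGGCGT
GC content was 70.0% in *Adamts9*, 68.7% in *Timp2* and 72.0% in *Adamtsl5*, with 25, 25 and 29 CpG pairs. The words sought on both strands were GACGTG, the core of the G-box studied for Creb3l1, the full cyclic AMP response element TGACGTCA, and the AP-1 word. None of the 3 words was in these promoters. GACGTG was in 5 of the 59 promoters of these families (8.47%) and in 6.38% of all promoters, and the 5 belonged to *Adamts3*, *Adamts18*, *Mmp14*, *Mmp27* and *Timp1*. Of these *Mmp14* alone had enough reads to be tested, and it was not called. No promoter was found for the called genes *Adam9*, *Adam12*, *Adamts4*, *Adamts7*, *Adamts10*, *Adamtsl1* and *Mmp17*, so these were not searched for any of the words. The G-box word sought here is the core that the study found in the *Pcsk1* promoter. The G-box that the study gives for the rat vasopressin promoter does not hold this word and was not sought. Whether called genes hold that other form was not tested. TGACGTCA was in none of the 59 and in 1.79% of all promoters.

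The guide strand of shRNA1, as complementary to its target, reads aTTGTTGAggaaatccgactc, with its seed (bases 2 to 8) in capitals. An RNA that holds the complement of the seed, TCAACAA, can be bound by the guide like the target of a microRNA, so this word was sought in the longest annotated 3′ untranslated region of each gene. It was present in 6 of the 33 tested genes (18.2%) and in 9.33% of 12326 tested genes with such a region. The stretches are shown because they match the seed of the guide, with the word in capitals and its GRCm38 coordinates.
Adam15 (chr3:89339526-89339532, minus strand): cccagaaagggTCAACAAgaatgtgtcact
Adamts4 (chr1:171260192-171260198, plus strand): ggcaaagatagTCAACAAgaacatgaaggt
Adamts4 (chr1:171260617-171260623, plus strand): ttgcctaataaTCAACAAagcaaagcaaag
Adamts6 (chr13:104495122-104495128, plus strand): catcaaaagatTCAACAActagattgttta
Mmp15 (chr8:95374963-95374969, plus strand): ttcaaatcctaTCAACAAcatggtggctca
Mmp16 (chr4:18118807-18118813, plus strand): cagactgtactTCAACAAgacattcatgat
Mmp17 (chr5:129610951-129610957, plus strand): cagttcttcacTCAACAAacattactaaaa
Of these genes *Mmp17*, *Adam15* and *Mmp15* fell, *Adamts4*, with 2 sites, rose, and *Mmp16* and *Adamts6* were not called. The median log2 fold change was -0.041 over the 6 genes and 0.18 over the other 27 tested genes. Over all genes it was 0.017 with the word and -1.1e-04 without. None of the 8 genes that changed at least 1.5-fold held it. The part of the guide in any change was not tested.

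Lists of regulators and substrates of these proteases, drawn up with earlier results of these data known, were read in the same fit. Of 24 regulators 16 were tested, 3 rose and 6 fell, a share of 56.2% called against 40.7% of all genes, with a median log2 fold change of -0.076. *Pcsk6*, a convertase that removes propeptides, rose from 433 ± 8.34 normalised counts to 719 ± 38.8 (SD, n = 5 each), while *Furin* was at 1394 ± 62.4 and 1380 ± 45.1 (SD, n = 5 each) and was not called. *Spock2*, which encodes a testican, rose by 0.36 on the log2 scale. Of the tetraspanins that carry ADAM10 through the secretory pathway, 3 were called. *Tspan17* fell from 530 ± 23.2 to 282 ± 19.4 (SD, n = 5 each), a log2 fold change of -0.91, and *Tspan15* fell by 0.27. *Tspan5* rose by 0.13, but its call was lost with offsets for GC and length (0.053, adjusted p = 0.21, edgeR). The call was also lost without non-targeting replicate 3 (adjusted p = 0.012, edgeR) and without the 3 libraries high in *Fn1* and *Col1a2* (adjusted p = 0.025, edgeR). *Bsg*, an inducer of MMPs, fell by 0.30. The carriers of ADAM17, *Rhbdf1*, *Rhbdf2* and *Frmd8*, were not called.

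Of 34 proteins known to be shed by ADAMs, 18 had tested genes, of which 8 rose and 5 fell (72.2% called, against 40.7% of all genes), with a median log2 fold change of 0.12. *Il6ra*, the interleukin 6 receptor, rose from 272 ± 21.6 normalised counts to 857 ± 25.8 (SD, n = 5 each), a log2 fold change of 1.66. *Cdh2* (N-cadherin) and *Ncam1* rose by 0.39 and 0.34. *Notch2* fell by 0.32, *Sdc1* by 0.30 and *Aplp1* by 0.21 on the log2 scale. *App*, the amyloid precursor gene, was higher at 47960 ± 632 than at 39397 ± 282 (SD, n = 5 each). Of 34 matrix substrates 18 were tested, 4 rose and 3 fell, with a median of 0.22, and their share called (38.9%) was near the 40.7% of all genes. Among those with at least 100 normalised counts, *Eln*, the elastin gene, (1.61) and *Lama5* (0.29) rose, and *Col18a1* (-1.04) and *Bcan* (-0.48), the brevican gene, fell. *Vcan*, the versican gene, was at 9.996 ± 2.20 and 12.3 ± 3.93 (SD, n = 5 each) and was not called, and *Acan*, the aggrecan gene, had no read.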

How the data were processed

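Poly(A)-selected RNA of 2 stable AtT20 lines was sequenced in 5 libraries each. From trimmed paired-end reads the authors made STAR alignments against GRCm38, took gene counts with featureCounts from an Ensembl annotation, and deposited these raw counts without normalisation. Tool versions are not given in the labels. Symbols were paired with 53620 of 53801 identifiers. The analysis used edgeR 4.0.16 under R 4.3.3 (filterByExpr, TMM, robust quasi-likelihood test of one line against the other, no covariate, Benjamini-Hochberg over the 14336 genes tested, threshold 0.01 as in the study). Standard errors come from the log2 fold change and its F statistic. Counting errors weigh most on genes with few reads. TPM used the longest transcript in GENCODE M21 (GRCm38), which also gave coordinates and 3′ untranslated regions. The tests were checked on simulated data.

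The genes, lists and rules were chosen with earlier results of these data known. The naming rule gives library values for called genes that changed at least 1.5-fold and averaged 10 or more normalised counts. It gives means for the other called genes, for uncalled genes averaging 100 or more, and for inhibitors, and summed reads for untested genes with 10 or more. From each list it takes up to 3 increases and 3 decreases averaging 100 or more. Library values of *Adamts4* and *Timp3*, *Mmp2* and its matrix genes, *App*, *Furin*, *Vcan*, *Acan* the carriers of ADAM17 and the other uncalled genes given with values were added after their values were seen. The values of *Pecam1* and *Tek* were also added then. Alternatives were DESeq2 1.42.0, RLE factors, library totals, other filters and thresholds, a replicate block, each library left out, and offsets for GC content and length (smooth functions with 5 degrees of freedom). The fit without robust dispersions and the fit without 3 libraries were added after seeing the data. One item is not reported here.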

Additional observations from a re-analysis of the deposited data

Results flagged for a closer look

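In each line, the gap between the lowest or highest library and its nearest neighbour was divided by the range of the 5 libraries. This ratio was compared with Dixon's value of 0.71 for the genes named by the rule and *Mmp2*. Of 82 groups of 5 libraries, 2 passed it, where chance gives about 1 in 20, or 4.10. *Adam9* was at 2169 normalised counts in non-targeting replicate 4, against 2305 to 2359 in the other libraries of the line. *Adamtsl5* was at 25.4 in knockdown replicate 5, against 17.1 to 19.3. Both genes kept their direction and their call when that library was left out.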

How the results depend on the processing

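With each library left out in turn, 17 to 20 genes were called in place of 19 (10 to 12 higher and 7 to 8 lower). The number was 19 with DESeq2, RLE factors, library totals, the offsets and non-robust dispersions, 20 with no filter and 16 with a minimum of 10 counts per library, where *Adam12*, *Adam19* and *Adamts7* were not tested. With a minimum of 1.5-fold it was 8 (6 higher, 2 lower). Over all genes, 5837 became 1108 (470 higher, 638 lower), and the lists went to 3 regulators, 2 shed substrates and 4 matrix substrates. At an adjusted p under 0.05 it was 21. Over all genes the count was from 5408 to 6026 with one library left out. Of the 19 genes, 16 were called in the same direction in every fit that tested them. Of the other 3, *Adamtsl1* lost its call without any one of 5 libraries, *Mmp15* without 1, and *Adamts20* without either of 2 and with the offsets (0.33). With the 3 libraries of high *Fn1* and *Col1a2* counts left out, all 3 lost it and 16 genes were called. There *Reck*, called in no fit, reversed to 0.0029. *Adamtsl4*, below the filter with all libraries, gained a call without non-targeting replicate 2 (-1.15), and *Mmp2* without knockdown replicate 1 (0.72) and with no filter (0.55). Replicate numbers pair no libraries here, since deviations of libraries with the same number correlated between -0.062 and 0.038, and with the replicate block 19 of these genes and 6013 of all genes were called. Standard errors of the log2 fold change had a median of 0.12 for the 33 tested genes and 0.21 for the 3584 tested genes with the lowest counts, so small changes in rare genes were not detectable.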
